A study of Rattus norvegicus with 9 samples.

Results

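The genes described are 10 receptors of the tumour necrosis factor (TNF) superfamily, picked by name from the 19085 genes of the table: Tnfrsf1a, Tnfrsf1b, Tnfrsf10b, Tnfrsf12a, Tnfrsf19, Tnfrsf21, Fas, Ltbr, Edar and Cd40. Osteoprotegerin (Tnfrsf11b), the decoy receptor for RANKL, is not among them. Each symbol stood on 1 gene, and all 10 genes had enough counts for a test. Messenger RNA was sequenced from primary calvarial osteoblasts after 7 days in osteogenic induction medium with β-glycerophosphate, ascorbic acid and dexamethasone, which all 3 groups received. The cells came from male Sprague-Dawley pups aged 24 hours. The control group had the medium alone, the thrombin group had thrombin at 20 U/mL, and the PD03 group had the same thrombin with the MEK inhibitor PD0325901 (PD03) at 0.1 μM (a protocol in the labels says 0.1 mM). Each group had 3 libraries, no group had PD03 without thrombin, and the labels name the knee as tissue where their growth protocol names the calvaria.

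Receptors of the TNF superfamily sit in the plasma membrane and bind trimeric ligands through cysteine-rich repeats. Tnfrsf1a (TNFR1), Fas, Tnfrsf10b (the TRAIL receptor), Tnfrsf21 (death receptor 6) and Edar carry a cytoplasmic death domain, through which adaptors such as Tradd and Fadd are recruited. Tnfrsf1b (TNFR2), Cd40, Ltbr, Tnfrsf12a (Fn14, the receptor of TWEAK) and Tnfrsf19 (Troy) have no death domain and signal mainly through TRAF proteins. In bone, TNF is known to restrain osteoblast differentiation and to support osteoclast formation.

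Total counts lay between 15447832 and 19841468 per library. In each group replicate 1 lay farther from replicates 2 and 3 than those lay from each other, and no library was left out. Of 10 osteoblast markers, 7 were tested. Their summed level, mostly type I collagen, was 60716 to 66509 CPM (counts scaled by library size and TMM factor) in control libraries, 55826 to 59057 CPM with thrombin and 95117 to 98252 CPM with PD03. With PD03 against thrombin, 3 of the 7 rose (Col1a1, Col1a2 and Alpl) and 2 fell: Spp1 (log2 fold change -1.80 in the edgeR test, adjusted p = 7.3e-31) and Runx2 (-0.67, adjusted p = 2.5e-11). With thrombin, Spp1 rose (1.54, adjusted p = 3.5e-28) and Alpl fell (-2.24, adjusted p = 4.0e-05). The thresholds for "rose" and "fell" are given further below. By them, 9.61% of all genes rose and 6.31% fell with PD03 against thrombin. With thrombin against control, 2.62% rose and 5.44% fell. Alpl was low throughout, with 19 to 41 counts per control library, 6 in each thrombin library and 46 to 62 per PD03 library. It passed the count filter of the test (minimum count 10) only through the control and PD03 groups, where it was higher. Its differences from thrombin are thus partly set by that filter. Late markers were near absent: Bglap had 1 to 5 counts per library, and Ibsp and Dmp1 had 0 to 4. Among markers of other cells, Ptprc and Aif1 (leukocytes) had 0 to 6 counts and Pecam1 (endothelium) had 1 to 8. The summed endothelial markers (5 of 8 in the table) were higher in the PD03 libraries, at 12.0 to 14.1 CPM beside 7.35 to 9.75 CPM in the others. That sum was mostly Tek (6.46, 6.17 and 9.51 CPM by mean in the control, thrombin and PD03 groups). Kdr was at 0.563, 0.692 and 1.88 CPM, and Vwf differed little (1.11, 1.25 and 1.18 CPM). The lymphoid markers (3 of 8) reached at most 0.466 CPM in any library. In bulk samples, fewer expressing cells and less RNA per cell cannot be told apart.

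The promoters of the 3 receptor genes called different between PD03 and thrombin are shown for reference, since 2 of these genes were lower in the PD03 group and Edar was higher. Each line gives the 250 bases before the RefSeq start, 5′ to 3′ on the gene's strand, in the assembly GRCr8, which is not the build of the counts. Capitals mark a match to the AP-1 motif TGANTCA.
Tnfrsf1b, chr5:162387412-162387661, minus strand: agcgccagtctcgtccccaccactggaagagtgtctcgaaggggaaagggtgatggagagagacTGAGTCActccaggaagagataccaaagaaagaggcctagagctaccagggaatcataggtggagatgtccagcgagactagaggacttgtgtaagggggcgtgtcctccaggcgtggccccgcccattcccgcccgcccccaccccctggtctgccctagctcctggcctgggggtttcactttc
Tnfrsf12a, chr10:13213649-13213898, minus strand: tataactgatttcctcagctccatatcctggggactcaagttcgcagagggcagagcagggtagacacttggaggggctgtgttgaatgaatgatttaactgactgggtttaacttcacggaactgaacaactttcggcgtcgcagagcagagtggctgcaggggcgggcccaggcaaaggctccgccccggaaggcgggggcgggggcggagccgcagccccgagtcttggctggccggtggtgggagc
Edar, chr20:27209631-27209880, minus strand: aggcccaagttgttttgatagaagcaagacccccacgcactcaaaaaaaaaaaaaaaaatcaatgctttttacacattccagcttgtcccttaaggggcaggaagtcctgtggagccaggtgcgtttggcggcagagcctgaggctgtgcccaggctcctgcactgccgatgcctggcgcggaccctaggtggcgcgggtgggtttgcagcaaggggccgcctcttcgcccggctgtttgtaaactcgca
Promoters of 8 of the 10 genes were at hand (all but Tnfrsf10b and Cd40). Both strands were searched for 3 motifs: AP-1, which reads the same on both strands apart from its central base, ETS as CCGGAANT, and the NF-κB consensus. Tnfrsf1b held TGAGTCA at bases 186 to 180 before the start and Fas held TGAATCA at bases 205 to 199. No other match was found in these 8 windows. Of all 33469 promoters of this length, 6.34% held the AP-1 motif, 4.59% the ETS motif and 3.54% the NF-κB motif. A match of letters is a description and not a binding site.

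Levels of different genes were compared with the deposited FPKM values, which are per length. In the control group, Tnfrsf1a (105 ± 2.52 FPKM, mean ± SD, n = 3), Tnfrsf12a (102 ± 6.82 FPKM) and Ltbr (87.9 ± 1.36 FPKM) stood far above the rest and together held most of the family's signal (30.8%, 30.0% and 25.9% of the summed FPKM). A gap of 6.32-fold separated Ltbr from the next gene, Tnfrsf21 (13.9 ± 0.381 FPKM). Fas (10.5 ± 0.563 FPKM), Tnfrsf1b (7.50 ± 0.228 FPKM) and Tnfrsf10b (6.71 ± 0.478 FPKM) followed. At the low end were Tnfrsf19 (2.61 ± 0.307 FPKM), Edar (1.86 ± 0.444 FPKM) and Cd40 (1.69 ± 0.414 FPKM), whose neighbouring ranges overlapped, as did those of Tnfrsf1a and Tnfrsf12a.

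The order shifted between groups at both ends. In the thrombin group Tnfrsf12a was first at 138 ± 4.53 FPKM, above Tnfrsf1a at 92.2 ± 3.92 FPKM with no overlap, and Edar was last at 0.592 ± 0.127 FPKM. In the PD03 group Tnfrsf1a was first again (93.9 ± 1.15 FPKM), and Tnfrsf12a (83.7 ± 0.741 FPKM) and Ltbr (82.8 ± 2.32 FPKM) overlapped. Tnfrsf1b, which stood sixth by mean in the control group and the thrombin group, was eighth of the 10 in the PD03 group, below Tnfrsf19, with overlapping ranges. Fas and Tnfrsf1b could not be ordered in the thrombin group (8.93 ± 0.836 and 8.92 ± 0.577 FPKM).

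**Figure D1:**
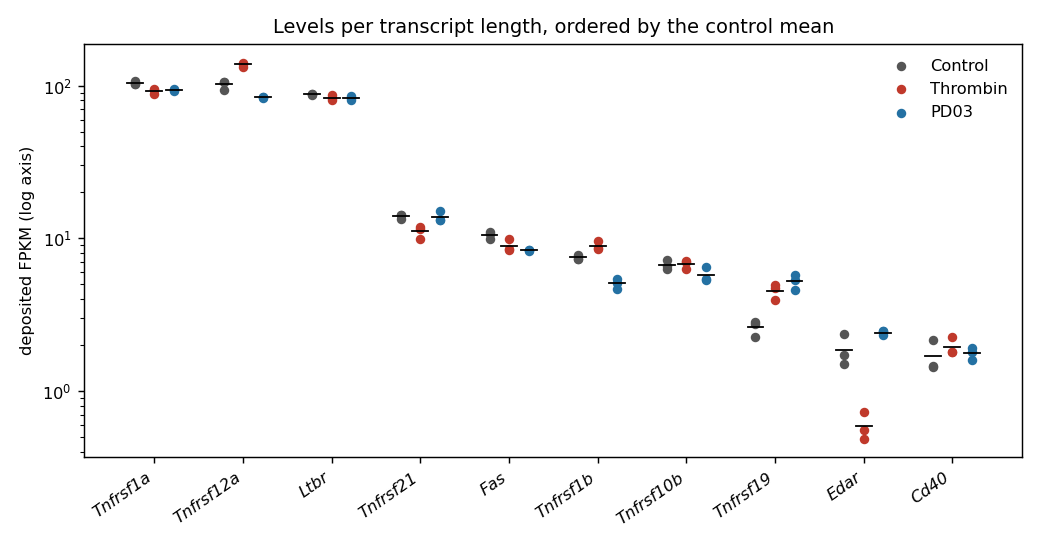
Deposited FPKM (log axis) of the 10 receptor genes in each of the 9 libraries, with a line at each group mean and genes ordered by the control mean. Tnfrsf1a, Tnfrsf12a and Ltbr lie above 80 FPKM in all libraries, and Edar in the thrombin group lies below all other values, between 0.489 and 0.734 FPKM.

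A gene was called a differentially expressed gene (DEG) where the adjusted p was below 0.05 with a log2 fold change (log2FC) outside ±0.58 (edgeR quasi-likelihood test on the raw counts of all 13256 tested genes, Benjamini-Hochberg adjustment), and "rose" and "fell" are used for DEGs. With thrombin against control, 2 of the 10 receptor genes were DEGs: Tnfrsf19 rose and Edar fell. Of all tested genes, 8.06% were DEGs in this comparison (2.62% higher, 5.44% lower). By the adjusted p-value alone, 3 receptor genes were higher and 4 lower, beside 14.1% and 14.6% of all genes (28.7% in either direction). Of these 4, Fas did not pass with DESeq2. For 6 of the 10 the CPM ranges of the groups did not overlap, which held for 40.3% of all genes. The median log2 fold change of the 10 was -0.01, and that of all genes was -0.006. Values of the 10 genes ran from -1.64 to 0.81.

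With PD03 against thrombin, 3 receptor genes were DEGs: Edar rose, and Tnfrsf1b and Tnfrsf12a fell. Of all genes, 15.9% were DEGs in this comparison (9.61% higher, 6.31% lower). The higher share of all DEGs was 60.4%, but it was 46.5% with library totals only, 42.8% from log2(FPKM + 1) and 46.3% from log2(FPKM + 0.1). By the adjusted p-value alone, 4 receptor genes were higher and 2 lower, beside 25.3% and 24.5% of all genes (49.8% in either direction), so these 6 of 10 are near the background share. For 7 of the 10 the ranges did not overlap, beside 55.5% of all genes. The median log2FC of the 10 was 0.047, beside 0.011 for all genes. With PD03 against control, Tnfrsf19 was the 1 receptor gene that was a DEG (higher), where 8.97% of all genes were DEGs (4.9% higher, 4.07% lower). By the adjusted p-value alone, 2 receptor genes were higher and 3 lower, beside 19.7% and 20.2% of all genes (39.9% in either direction), and for 5 the ranges did not overlap, beside 47.8% of all genes. Of all DEGs in this comparison, 54.6% were higher, but 34.1% with library totals only, 36.2% from log2(FPKM + 1) and 34.3% from log2(FPKM + 0.1). The thrombin libraries enter the first and second comparison, and each other group enters a pair of comparisons as well, so the comparisons are not independent.

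**Figure D2:**
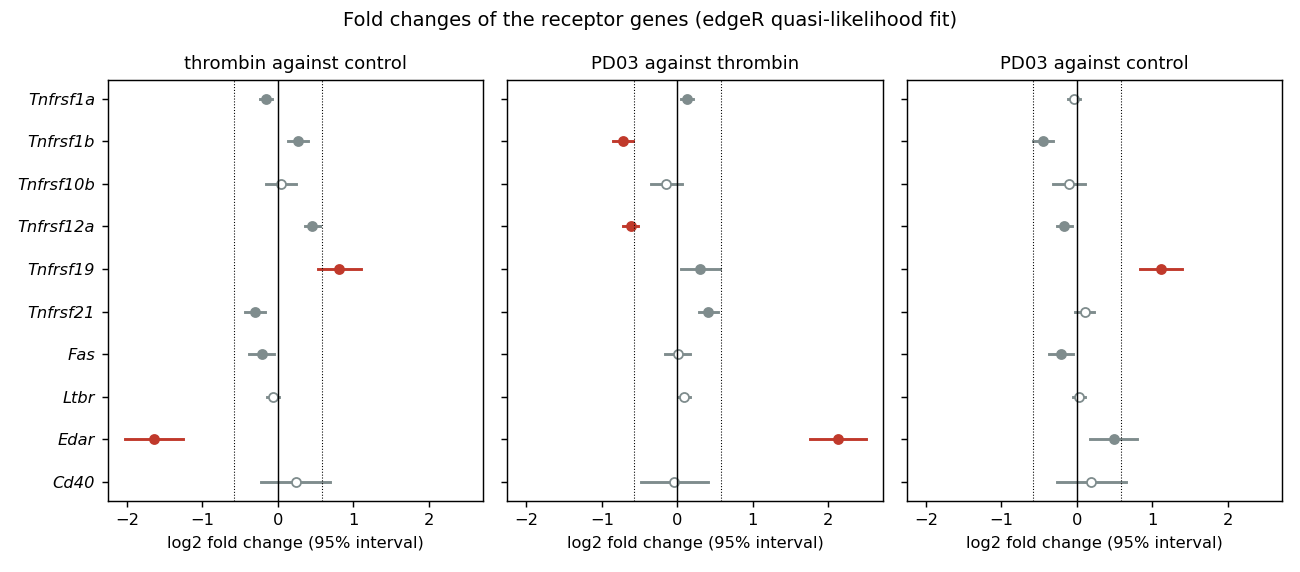
Log2 fold change of each receptor gene in the 3 comparisons with its 95% interval from the edgeR fit (red, DEG; filled, adjusted p-value under 0.05; open, not under it; dotted lines, ±0.58). Edar lies at -1.64 and 2.13 in the first and second panel, and Tnfrsf19 lies above 0 in all 3 panels.

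Edar (ENSRNOG00000028598), the death domain receptor of ectodysplasin known from the growth of hair, teeth and sweat glands, had the widest differences of the 10 in both comparisons with the thrombin group. It stood at 8.21, 6.12 and 5.31 CPM in control replicates 1 to 3, at 2.62, 1.97 and 1.75 CPM in the thrombin libraries and at 9.43, 9.39 and 8.88 CPM in the PD03 libraries. Every thrombin library lay below every other library, and every PD03 library lay above every control library. In FPKM, which has no TMM factor, the PD03 range (2.31 to 2.47) overlapped that of the control (1.50 to 2.35). Edar fell with thrombin by 1.64 on the log2 scale (SE 0.19, adjusted p = 2.9e-09). It rose 4.37-fold from the thrombin to the PD03 libraries, a log2FC of 2.13 (SE 0.18, adjusted p = 3.7e-13). These values rest on 30 to 44 counts per thrombin library. Between PD03 and control, Edar had a log2 fold change of 0.49 (SE 0.15, adjusted p = 0.0098), which was under the fold threshold but was 0.69 and past it without Control replicate 1, the control library with the most Edar (151 counts beside 97 and 84). Without Control replicate 3 it was 0.35 (adjusted p = 0.095), and from log2(FPKM + 1) it was 0.27 (limma, adjusted p = 0.057).

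The ligand of Edar, Eda, went in the same directions. It was lower with thrombin than in control, though not a DEG (18.6 ± 2.15 against 12.6 ± 1.41 CPM, log2 fold change -0.56, adjusted p = 2.7e-05), and it rose in the PD03 group to 26.6 ± 2.18 CPM (log2 fold change 1.07 against thrombin, SE 0.10, adjusted p = 1.9e-12). The adaptor Edaradd was low in all groups, at 22 to 35 counts per library, with log2 fold changes of -0.19 (adjusted p = 0.68) and 0.14 (adjusted p = 0.72). Among 6 epithelial markers, 4 were in the table and 2 were tested, and their summed level moved in the same direction as Edar (6.74 to 8.52 CPM in the control, 3.87 to 5.21 CPM in the thrombin and 9.86 to 13.0 CPM in the PD03 libraries). Nearly all of that sum was Krt8 (6.88 ± 1.17, 4.08 ± 0.824 and 10.1 ± 1.53 CPM), with Krt18 at 0.289, 0.269 and 0.968 CPM, while Krt5 and Cdh1 were at most 0.255 CPM by group mean, and the part of these cells in the Edar result was not tested.

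Tnfrsf19 (ENSRNOG00000014265), an orphan receptor known from mesenchymal progenitors and the nervous system, was higher in both treated groups. The control libraries had 5.33, 5.62 and 4.48 CPM, the thrombin libraries 9.81, 9.49 and 7.87 CPM, and the PD03 libraries 11.4, 12.3 and 9.86 CPM. The control libraries lay below all others, and each PD03 library lay above each thrombin library by a narrow margin. In FPKM, which has no TMM factor, the PD03 range (4.61 to 5.78) overlapped that of thrombin (3.94 to 4.94). Tnfrsf19 rose 1.76-fold with thrombin (log2FC 0.81, SE 0.14, adjusted p = 1.4e-05). With PD03 it stood 2.17-fold above control (log2FC 1.12, SE 0.14, adjusted p = 1.0e-08). Between PD03 and thrombin the log2 fold change was 0.30 (95% interval 0.05 to 0.56, adjusted p = 0.045), under the fold threshold, and it did not pass with DESeq2 (adjusted p = 0.092), library totals (log2FC 0.20, adjusted p = 0.18, with the median of all genes at -0.088) or once Thrombin replicate 3 was left out (0.21, adjusted p = 0.23). Nor did it pass with RLE factors or all genes kept (edgeR, 0.0505 and 0.070), or from log2(FPKM + 1) or log2(FPKM + 0.1) (limma, 0.18 and 0.20). Without Control replicate 2 or 3, Thrombin replicate 2, or PD03 replicate 1 or 2 it failed as well (edgeR, 0.051 to 0.21). It passed with limma voom, a mean count of at least 50, the replicate block and the other single libraries left out. When the null was set at the fold threshold (glmTreat of edgeR), the rise with thrombin was no longer called (adjusted p = 0.32). A long non-coding RNA overlaps Tnfrsf19 in RefSeq, and whether counting used strand is not stated, so their reads may not be told apart.

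**Figure D3:**
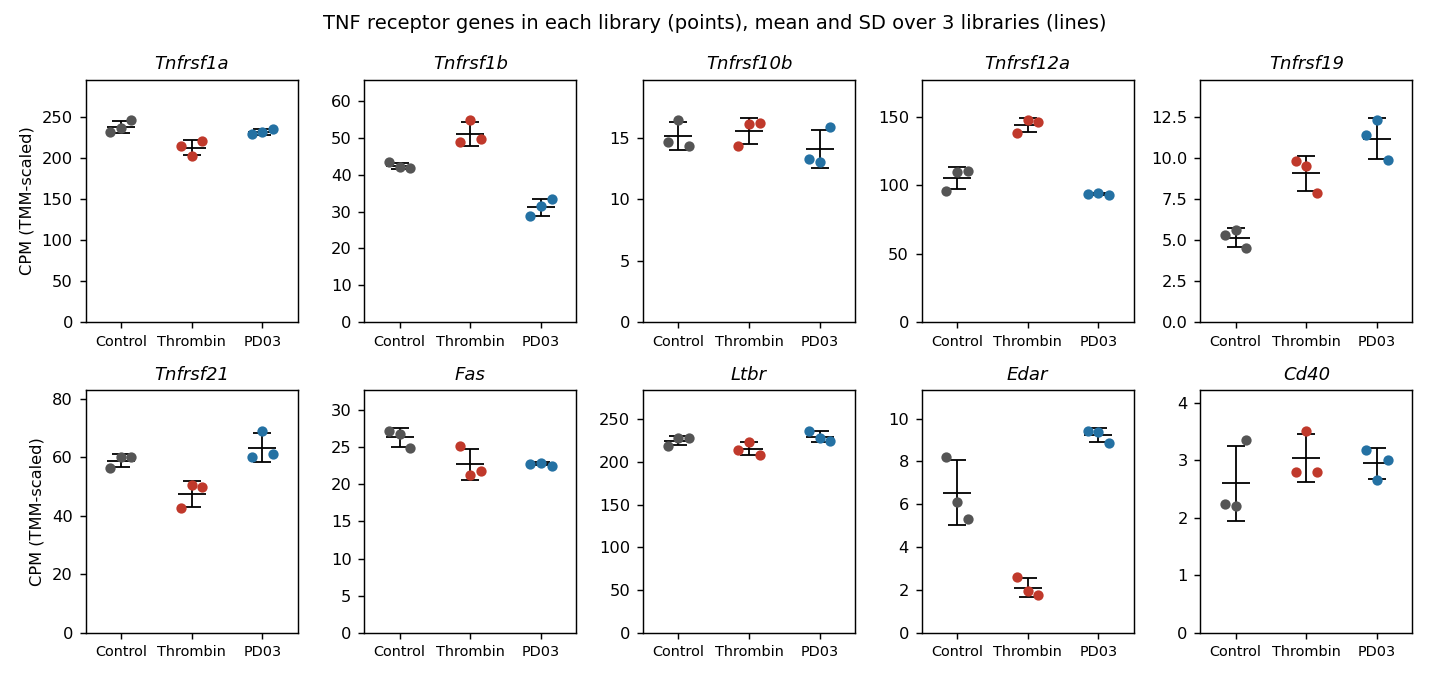
CPM (TMM-scaled, axes from 0) of each receptor gene in the 9 libraries, with the mean and SD of 3 libraries per group. Edar is lowest in the 3 thrombin libraries (1.75 to 2.62 CPM), Tnfrsf12a is highest there (138 to 148 CPM), and Tnfrsf1b is lowest in the 3 PD03 libraries (28.7 to 33.3 CPM).

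Tnfrsf12a (ENSRNOG00000003546), a small receptor known to be induced by growth factors in mesenchymal cells, and Tnfrsf1b (ENSRNOG00000016575), the TNF receptor without a death domain, were highest in the thrombin group and lowest in the PD03 group. Tnfrsf12a had 96.1, 110 and 110.2 CPM in the control libraries, 138, 148 and 146 CPM in the thrombin libraries and 93.9, 94.3 and 93.2 CPM in the PD03 libraries. All thrombin libraries lay above all others, and the PD03 libraries lay just under the lowest control library. The thrombin libraries exceeded control by a log2FC of 0.45 (SE 0.05, adjusted p = 2.8e-10), under the fold threshold. From thrombin to PD03 it fell by 0.62 on the log2 scale (SE 0.05, adjusted p = 2.4e-14). Against control, the PD03 group was lower by a log2 fold change of -0.17 (adjusted p = 0.0067), which is under the threshold and had an adjusted p of 0.054 without Control replicate 3.

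Tnfrsf1b had 43.5, 42.0 and 41.9 CPM in the control libraries, 48.8, 54.8 and 49.6 CPM in the thrombin libraries and 28.7, 31.4 and 33.3 CPM in the PD03 libraries. The 3 groups did not overlap. Thrombin exceeded control by a log2FC of 0.27 (SE 0.06, adjusted p = 0.0012), under the threshold. From thrombin to PD03 it fell 1.64-fold (log2FC -0.72, SE 0.07, adjusted p = 3.1e-12). PD03 against control gave -0.45 (95% interval -0.59 to -0.31, adjusted p = 6.1e-07). Neither fall with PD03 was called with the null at the fold threshold (glmTreat, adjusted p = 0.069 for Tnfrsf1b and 0.60 for Tnfrsf12a). An uncharacterised gene overlaps Tnfrsf1b in RefSeq.

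Tnfrsf1b is carried by many myeloid cells. Of 12 myeloid markers, 10 were in the table and 2 were tested, and their summed level was 21.2 to 24.2 CPM in the control, 29.4 to 33.3 CPM in the thrombin and 17.9 to 19.6 CPM in the PD03 libraries, the same order as Tnfrsf1b. That sum was almost wholly Cd14, which fibroblastic cells also express (20.5 ± 1.78, 29.3 ± 1.74 and 15.7 ± 0.437 CPM). The other tested myeloid marker, Csf1r, was in another order, at 0.440, 0.746 and 1.24 CPM, and was higher with PD03 against control (log2FC 1.47, adjusted p = 0.0045). Ptprc, which all leukocytes carry, was at 0.0392, 0.0758 and 0.147 CPM by group mean, and Aif1 had 0 counts in all control and thrombin libraries. The part of myeloid cells in the Tnfrsf1b result was not tested.

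Tnfrsf1a (ENSRNOG00000031312), the death domain receptor for TNF, differed little. It had 232, 237 and 247 CPM in the control libraries, 215, 203 and 221 CPM in the thrombin libraries and 229, 232 and 236 CPM in the PD03 libraries. The thrombin libraries were the lowest, by log2 fold changes of -0.16 against control (adjusted p = 0.0013) and 0.13 for PD03 against thrombin (adjusted p = 0.0077). The second of these did not hold under every setting: it was 0.027 with library totals (adjusted p = 0.59) and from log2(FPKM + 1) (limma, adjusted p = 0.55), and 0.080 without Thrombin replicate 2 (adjusted p = 0.15), and the FPKM ranges overlapped. The median of all genes was -0.088 with library totals and -0.065 from log2(FPKM + 1). Relative to these medians Tnfrsf1a was 0.114 and 0.092, beside 0.115 in the main fit. Between PD03 and control the 95% interval was -0.12 to 0.04. The level of Tnfrsf1b as a percent of Tnfrsf1a in the same library (both as FPKM) was 6.85 to 7.53% in control, 9.06 to 10.9% with thrombin and 5.05 to 5.69% with PD03. The ranges did not overlap, and with 3 libraries against 3 no permutation test of this ratio could pass the threshold.

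**Figure D4:**
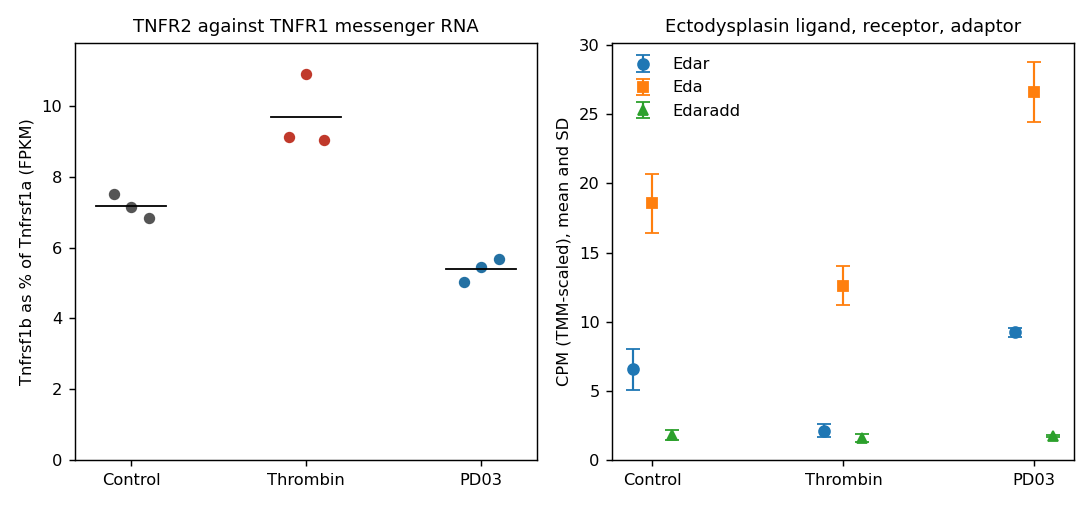
Left, Tnfrsf1b as a percent of Tnfrsf1a (FPKM) in each library, with group means; right, CPM of Edar, its ligand Eda and its adaptor Edaradd, mean and SD of 3 libraries, each gene to be read across groups only. The percent lies between 9.06 and 10.9 in the thrombin group and at most at 5.69 in the PD03 group, and Eda and Edar are both lowest with thrombin.

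Tnfrsf21 (ENSRNOG00000011517), a death receptor known from neurons and T cells, ran from 42.5 to 50.5 CPM in the thrombin libraries, below the control libraries (56.3 to 60.0 CPM) and the PD03 libraries (59.9 to 69.0 CPM). Its log2 fold changes were -0.30 with thrombin (adjusted p = 2.5e-04) and 0.41 with PD03 against thrombin (SE 0.06, adjusted p = 7.7e-07), both under the fold threshold. Fas (ENSRNOG00000019142), the receptor of Fas ligand, had 24.9 to 27.2 CPM in the control libraries, 21.2 to 25.1 CPM in the thrombin libraries and 22.5 to 22.9 CPM in the PD03 libraries. The log2 fold changes of Fas were -0.21 with thrombin (adjusted p = 0.041) and -0.21 for PD03 against control (adjusted p = 0.034), and the 95% interval for PD03 against thrombin was -0.16 to 0.17. Neither difference from control passed with DESeq2 (adjusted p = 0.087 and 0.063). With thrombin, the adjusted p was 0.067 with all genes kept, and 0.12 to 0.21 without Control replicate 1 or 2 or Thrombin replicate 2 or 3. For PD03 it was 0.052 to 0.11 without Control replicate 1 or 2 or any 1 of the PD03 libraries. A small nuclear RNA gene overlaps Fas in RefSeq.

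For Tnfrsf10b, Ltbr and Cd40 no difference between groups passed an adjusted p-value of 0.05 in the main edgeR fit. Tnfrsf10b, a death receptor for TRAIL, had 13.0 to 16.4 CPM over the 9 libraries, and its 95% intervals were -0.16 to 0.24 with thrombin and -0.35 to 0.06 with PD03 against thrombin. The latter difference did pass with library totals (log2FC -0.24, adjusted p = 0.041), where the median of all genes was -0.088. It also passed from log2(FPKM + 1) and log2(FPKM + 0.1) (limma, adjusted p = 0.047 and 0.043). Rhobtb2 overlaps Tnfrsf10b in RefSeq, so reads of the pair may not be told apart. Ltbr, the lymphotoxin β receptor, had 209 to 237 CPM, and its intervals were narrow (-0.14 to 0.02 with thrombin, 0.01 to 0.17 with PD03 against thrombin, adjusted p = 0.052). The CPM ranges of PD03 and thrombin did not overlap for Ltbr. This difference passed with limma voom (adjusted p = 0.047), a mean count of at least 50 (edgeR, 0.039) and some single libraries left out. Cd40, known from antigen-presenting cells, had only 35 to 64 counts per library, and its intervals (-0.22 to 0.69 with thrombin, -0.49 to 0.40 with PD03 against thrombin) were the widest of the 10 genes.

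Among 15 other receptors of the superfamily listed, 4 were tested. Eda2r, the second ectodysplasin receptor, fell with thrombin (12.6 ± 0.698 to 8.23 ± 0.706 CPM, log2 fold change -0.61, adjusted p = 8.9e-05) and had 6.38 ± 0.586 CPM in the PD03 group, where Edar was highest. Tnfrsf26, a decoy-type receptor, fell with PD03 against thrombin (8.72 ± 0.675 to 2.76 ± 0.986 CPM, log2 fold change -1.64, adjusted p = 1.0e-09). The lymphoid receptors Cd27 and Tnfrsf17 had at most 4 counts in any library.

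Of 17 ligands listed, 13 were in the table and 8 were tested. With thrombin none rose and 5 fell, where 2.62% of all genes rose and 5.44% fell. The median log2 fold change of the 8 was -1.06, beside -0.006 for all genes. Tnfsf8 (11 to 15 counts per control library), Tnfsf13b (16 to 24) and Tnfsf18 (13 to 26) had fewer than 10 counts in every thrombin library. They passed the count filter only through groups where they were higher, so the 5 falls and the median are partly set by that filter. Tnfsf15 fell from 2.30 ± 0.311 to 0.802 ± 0.291 CPM (log2 fold change -1.52, adjusted p = 3.3e-04). The B-cell factors Tnfsf13 (-0.61, adjusted p = 0.030) and Tnfsf13b (-1.81, adjusted p = 0.0017) and the GITR ligand Tnfsf18 (-2.58, adjusted p = 6.8e-05) fell as well, but Tnfsf13b and Tnfsf18 had 2 to 7 counts in each thrombin library. With PD03 against thrombin, 3 rose and none fell: Eda, Tnfsf15 (log2 fold change 0.86, adjusted p = 0.038) and Tnfsf18 (2.16, adjusted p = 6.0e-04). Of all genes, 9.61% rose and 6.31% fell in this comparison.

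For the receptors with the highest levels, the ligand side was uneven. Tnfsf12 (TWEAK), the ligand of Tnfrsf12a, had 29.6 ± 1.49, 27.6 ± 1.88 and 29.7 ± 0.583 CPM in the control, thrombin and PD03 groups (adjusted p = 0.33 and 0.22). Tnf, the ligand of Tnfrsf1a and Tnfrsf1b, had 1 to 3 counts in the control libraries, 0 in the thrombin libraries and 0 to 1 in the PD03 libraries, too few to test. Lta, Ltb and Faslg had at most 7 counts in any library.

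**Figure D5:**
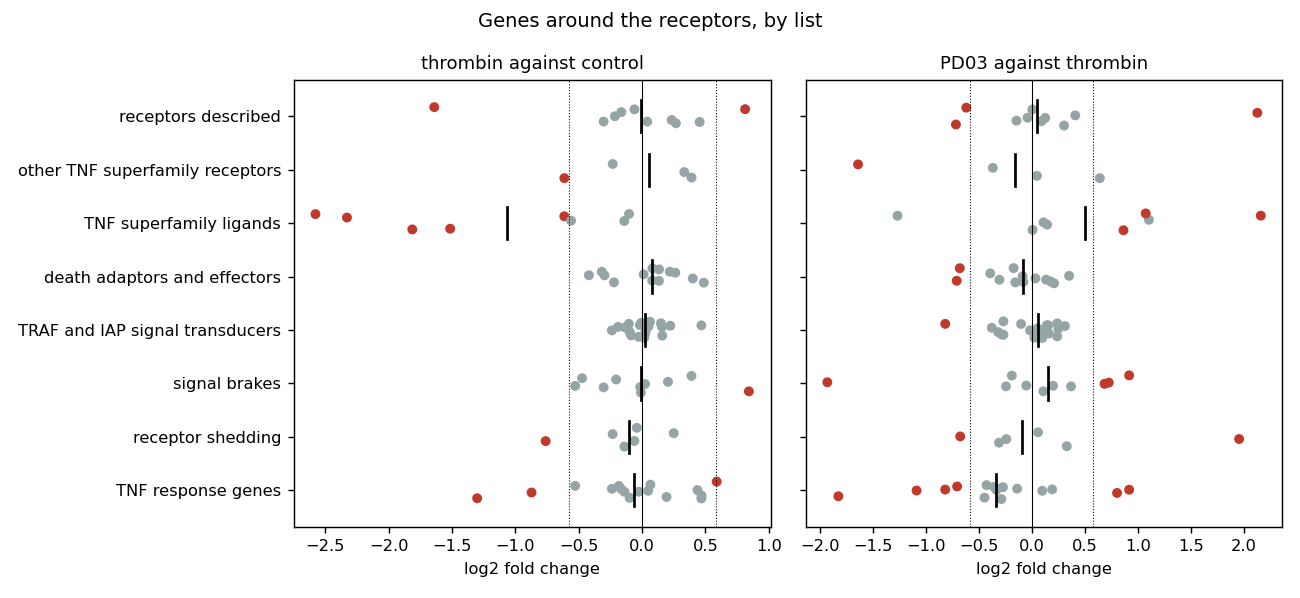
Log2 fold change of the tested genes in 8 lists, for thrombin against control (left) and PD03 against thrombin (right); red points are DEGs, black lines list medians, dotted lines ±0.58. All 8 tested ligands lie left of 0 with thrombin (median -1.06), but Tnfsf8, Tnfsf13b and Tnfsf18 passed the count filter only through other groups. In the right panel Ripk3, Cflar and Birc3 are the DEGs among the death adaptors and TRAF genes.

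Genes that act inside the cell next to the receptors followed. Of 13 death adaptors and effectors, all tested, none was a DEG with thrombin, where 8.06% of all genes were DEGs. With PD03 against thrombin 2 fell, where 15.9% of all genes were DEGs (9.61% higher, 6.31% lower). These were Cflar (cFLIP, which holds back caspase-8; 29.4 ± 2.96 to 18.3 ± 2.25 CPM, log2 fold change -0.68, adjusted p = 1.6e-08) and Ripk3 (a kinase of necroptosis; 95.2 ± 1.23 to 58.2 ± 1.95 CPM, log2 fold change -0.71, adjusted p = 3.2e-14). Under the fold threshold with thrombin, both exceeded control (log2FC 0.40 and 0.49, adjusted p = 3.2e-04 and 1.7e-09). Casp8 had log2 fold changes of 0.13 (adjusted p = 0.48) and -0.31 (adjusted p = 0.044). Of 20 tested TRAF, IAP and kinase genes, none was a DEG with thrombin. With PD03 against thrombin 1 fell, Birc3 (cIAP2; 19.9 ± 2.25 to 11.3 ± 0.393 CPM, log2 fold change -0.82, adjusted p = 3.8e-09). The shares of all genes above apply here too, and lists of this size are too small to set against them.

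Of 10 genes that brake TNF signalling, 1 rose with thrombin, and with PD03 against thrombin 3 rose and 1 fell. Of all genes, 2.62% rose and 5.44% fell with thrombin, and 9.61% rose and 6.31% fell with PD03 against thrombin. Tnfaip3 (A20), a ubiquitin-editing enzyme, rose with PD03 (41.7 ± 2.97 to 78.9 ± 3.92 CPM, log2 fold change 0.92, adjusted p = 4.0e-17), as did N4bp1 (0.72, adjusted p = 1.5e-17) and the A20-binding Tnip2 (0.69, adjusted p = 1.9e-05). Tnip3, another A20-binding protein, went the other way: it rose with thrombin (log2 fold change 0.84, adjusted p = 0.0019) and fell with PD03 (-1.93, adjusted p = 6.5e-09). Among 6 genes for receptor shedding, Timp3, an inhibitor of the sheddase Adam17, fell with thrombin (log2 fold change -0.76, adjusted p = 2.8e-07) and rose with PD03 against thrombin (8.77 ± 1.23 to 33.9 ± 0.501 CPM, log2 fold change 1.96, adjusted p = 1.4e-20). Rhbdf2, which carries Adam17 to the cell surface, fell with PD03 (-0.68, adjusted p = 3.2e-11), and Adam17 itself had a log2 fold change of -0.24 (adjusted p = 2.3e-05).

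Of 16 genes known to respond to TNF, 1 rose and 2 fell with thrombin, and 2 rose and 4 fell with PD03 against thrombin. Their median log2 fold changes were -0.06 and -0.34, beside -0.006 and 0.011 for all genes. The shares of all genes were 2.62% higher and 5.44% lower with thrombin, and 9.61% higher and 6.31% lower with PD03 against thrombin. Tnfaip8 (27.5 ± 0.795 to 12.9 ± 0.167 CPM, log2 fold change -1.09, adjusted p = 2.3e-14) and Cxcl10 (-1.83, adjusted p = 8.1e-04) fell with PD03, as did Birc3 and Ccl2 (-0.71, adjusted p = 9.4e-19), whereas Tnfaip3 and Vcam1 (0.80, adjusted p = 2.0e-08) rose. Cxcl10 had only 3 to 9 counts per PD03 library, beside 10 to 34 with thrombin and 34 to 47 in control. It passed the count filter only through groups where it was higher, so its fall with PD03 is partly set by that filter. Cxcl10 (-0.87, adjusted p = 0.041) and Vcam1 (-1.30, adjusted p = 4.7e-14) fell with thrombin. Tnfaip6 rose with thrombin (log2 fold change 0.59, adjusted p = 1.1e-09). Birc3, Traf1 and Tnfaip3 stand in 2 lists each.

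By Pearson's correlation of log2 CPM over the 9 libraries of 3 groups, given as a description, the genes most like Edar were Zfyve28 (0.994), C5ar2 (0.992) and Strip2 (0.989). Those most like Tnfrsf1b were Hspd1 (0.993), Ddx21 (0.992) and Kif11 (0.990). For Tnfrsf12a they were ENSRNOG00000066958, which has no symbol (0.996), Gnb4 (0.990) and Slc6a9 (0.987). For Tnfrsf19 they were Dgcr6 (0.975), Gramd1a (0.973) and Pik3c2a (0.967). All points share the same 9 libraries.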

How the data were processed

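RNA of 9 libraries, 3 each from the control, thrombin and PD03 groups, was sequenced after polyA selection. The authors trimmed reads with fastp, used HISAT2 for alignment and featureCounts for counts per gene. The paper names the build Rnor_6.0, whereas the submitters' processing notes list mRatBN7.2 and HTSeq 0.13.5. No source used here gives the annotation release or strand setting. The authors deposited raw counts and FPKM values per gene and library. The FPKM values were the count over the library total and 1 fixed length per gene, and were used for levels between genes and as an alternative.

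The counts were analysed with R 4.3.3 and edgeR 4.0.16. Of 19085 genes, 13256 passed filterByExpr (minimum count 10). Libraries were scaled by TMM, and 1 quasi-likelihood model with 3 groups gave 3 comparisons, adjusted by Benjamini-Hochberg over all tested genes. Standard errors came from the F statistic, and 95% intervals from them. CPM values are TMM-scaled and given as mean ± SD of 3 libraries. The study states 3 independent samples per group without saying whether these were separate animals or cultures, so p-values measure the spread between these samples. No pair of replicates agreed within sampling noise (chi-square over degrees of freedom 1.82 to 4.00), so all were kept. The pairs with replicate 1 had the higher values in each group. These were 3.06 and 3.13 in control (beside 1.82 for replicates 2 and 3), 3.17 and 3.03 with thrombin (beside 2.14), and 4.00 and 3.97 with PD03 (beside 1.92). The biological coefficient of variation was 4.28%.

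The receptor genes and gene lists were chosen with earlier results of these data known. All 10 receptors are named. From the other lists, markers apart, genes called in either of the first comparisons that reached 1 CPM in the mean of their highest group are named, cell type markers are given by their summed level, and any other gene named was chosen after its values were seen. For each receptor called in those comparisons, the 3 genes with the highest correlation are given. Alternatives covered scaling, filters, DESeq2 1.42.0, limma 3.58.1 (voom, and log2 FPKM with 1 or 0.1 added), the fold threshold, a replicate block and each library left out. The procedure was tested on simulated data. Promoters are from RefSeq (GRCr8), whose gene table was used only for overlaps. Python 3.11.15 with matplotlib 3.10.9 drew the figures.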

Additional observations from a re-analysis of the deposited data

How the results depend on the processing

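Edar stayed a DEG in both comparisons with the thrombin group, and Tnfrsf19 in PD03 against control, under every alternative run. For the log2 fold changes of single receptor genes there were 627 alternative values. Under other settings 324, and with a library left out 262, kept their direction and call. In the same order, 12 and 1 gained a call, 6 and 0 lost one, and 15 and 7 changed sign. A kept call includes a gene called in neither fit. The runs that changed only the fold threshold and glmTreat have the main log2 fold changes, so their direction could not change. With no fold threshold, the receptor genes called were 3 higher and 4 lower with thrombin, 4 higher and 2 lower with PD03 against thrombin, and 2 higher and 3 lower with PD03 against control. With a log2 fold threshold of 1, or with glmTreat against the threshold of 0.58, 0 were called higher with thrombin and 0 lower with PD03 against thrombin. Genes called in the whole table, 1068, 2110 and 1189 in the 3 comparisons, became 3808, 6608 and 5289 with no fold threshold, 505, 935 and 519 with a threshold of 1, 460, 1051 and 499 with glmTreat, and 543, 1254 and 676 from log2(FPKM + 1). Without Control replicate 1, 2 receptor genes were called higher with PD03 against control (range 1 to 2 over libraries left out), since Edar passed.

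Values that changed sign were small and not called. For PD03 against thrombin, Fas went from 0.0037 to -0.0032 (RLE factors), -0.095 (library totals), -0.014 (all genes with at least 1 count), -0.0034 (DESeq2), -0.083 (log2(FPKM + 1)) and -0.092 (log2(FPKM + 0.1)), and ranged from -0.055 to 0.069 with a library left out. Cd40 ranged from -0.11 to 0.068 with a library left out. Ltbr was -0.0078 (library totals), -0.0077 (log2(FPKM + 1)) and -0.0078 (log2(FPKM + 0.1)) in this comparison, and -0.085, -0.085 and -0.086 for PD03 against control, where Tnfrsf21 was -0.011, -0.011 and -0.012. Library totals also shifted the median of all genes to -0.12 for PD03 against control, and relative to it Ltbr was 0.035 and Tnfrsf21 0.11. Cd40 had no value with a mean count of at least 50.

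Deviations of same-numbered libraries from their group means correlated between -0.046 and 0.052, and 2 of 9 libraries correlated best with their own number. Counting noise enters these deviations, so a small effect shared by replicate number could go unseen. With the replicate block, 1067, 2103 and 1187 genes were called, and no call of a receptor gene changed. Depth limits Edar with thrombin (30 to 44 counts per library), Alpl with thrombin (6) and Cxcl10 with PD03 (3 to 9). It also limits Cd40 (35 to 64) and the ligands with 2 to 7 counts.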
